A study of Mus musculus with 14 samples.

Results

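The Dlk1-Dio3 miRNA cluster is the long row of miRNA genes on distal chromosome 12 of the mouse, between the genes Dlk1 and Dio3. Its members were taken by name. An assay belonged to the cluster if its name, without species and arm, carried one of 51 numbers that the locus is known to hold. Of the 389 miRNA assays with a named well, 32 belonged to the cluster, 24 with mouse probes and 8 with rat-named probes, and they came from 22 hairpins. For the other 29 numbers no named well was analysed here. Names came from the authors' own comparison and covered 392 of the 768 wells of a mouse. The methods removed miRNAs with 75% or more missing values before that comparison. A member may therefore lack a name because it was seldom detected, which was not tested. Beyond the naming of wells the rule used no measured value, but the members were chosen with earlier results of these data known.

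The screen measured miRNAs in plasma by quantitative PCR in 6 control mice and 8 mice with osteosarcoma (OS), 1 sample from each mouse. Control mice were healthy wild-type littermates, which the methods write as p53+/+;Cre+/−. Mice with OS carried Cre recombinase under the Col-α1(I) promoter, which is active in osteoblasts, and 1 or both Trp53 alleles flanked by LoxP sites, and they were bled by cardiac puncture once a tumor had developed. The labels do not say which mice with OS had 1 floxed allele and which had both, and they give no age for a single mouse. The methods list more mice with OS than the 8 analysed here. Mice are called by the numbers in their labels, so the control mice are 1, 2, 3, 4, 13 and 14 and the mice with OS are 10, 11, 12 and 15 to 19.

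The locus is imprinted. Dlk1, Rtl1 and Dio3 encode proteins and are transcribed from the paternal chromosome, whereas Meg3, the antisense transcript of Rtl1, Rian and Mirg are noncoding and are transcribed from the maternal chromosome. The miRNAs are cut from these maternal transcripts. Those within the Rtl1 antisense transcript, such as miR-127, miR-136 and miR-434, lie opposite the Rtl1 gene and match its transcript fully, and miRNAs of this kind are known to guide its cleavage. The second group, from miR-379 to miR-410, reaches into Mirg and is best known from brain, where miR-134 acts at dendrites. In adult tissue the cluster is used most in brain, and it is also used in the embryo, the placenta and growing muscle.

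All 22 hairpins lay on the plus strand of chromosome 12 within 158.0 kb (GRCm38.p6 chr12:109585789-109743795). The assays fell into 9 within the Rtl1 antisense group, between 44.8 and 54.3 kb from the start of Meg3, and 23 within the row from miR-379 to miR-410, between 169.2 and 202.7 kb from it. None of the assays came from the Rian group. RefSeq held the mature sequence for the 24 mouse assays, of 19 to 25 bases each, and not for the 8 rat-named ones, which are given by name only. The sequences below are those of the hairpins on which the comparison of the groups turned, with the seed (bases 2 to 8 from the 5′ end, the part that pairs with a target) in capitals. Older names without an arm were read as the arm that the current nomenclature gives the plain name.
miR-136-5p: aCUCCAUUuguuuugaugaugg
miR-136-3p: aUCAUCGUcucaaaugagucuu
miR-434-5p: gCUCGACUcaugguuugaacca
miR-434-3p: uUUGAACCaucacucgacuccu
miR-411-5p: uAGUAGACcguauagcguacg
miR-300-3p: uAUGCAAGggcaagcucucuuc
miR-758-3p: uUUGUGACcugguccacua

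The Mir136 hairpin is shown because 3 assays read it. In its sequence, at chr12:109595327-109595388 on the plus strand, both mature arms are in capitals.
Mir136: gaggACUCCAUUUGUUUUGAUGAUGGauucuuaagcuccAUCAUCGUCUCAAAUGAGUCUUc
Mir434 lies 727 bases upstream of it, at chr12:109594506-109594599, and is read by assays of both its arms.
Mir434: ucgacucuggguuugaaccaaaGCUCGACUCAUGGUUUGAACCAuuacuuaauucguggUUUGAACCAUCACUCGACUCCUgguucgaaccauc

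No 2 of the 24 sequences had the same seed. Among the pairs of equal length, 2 were more than 70% identical. The closest was miR-376a with miR-376b, which differed at 3 of 21 positions, and the other was miR-495 with miR-543, which differed at 4 of 22. These 4 are shown because an assay of 1 member of such a pair may also read part of the other, and how far it did was not tested.
miR-376a-3p: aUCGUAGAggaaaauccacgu
miR-376b-3p: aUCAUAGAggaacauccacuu
miR-495-3p: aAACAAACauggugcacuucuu
miR-543-3p: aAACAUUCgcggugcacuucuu

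The measured value is the Cq, the cycle at which the PCR signal crosses its threshold. It lies on a log2 scale and is lower for a more abundant miRNA. A Cq above 37 was treated as not measured. The normalized level is the mean Cq of a mouse minus the Cq of the assay, which rises with abundance. Levels of different assays also depend on their primers, so the order of assays by Cq is a description only.

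The cluster was scarce in plasma. The mean Cq of the 32 assays ran from 32.53 for miR-154 to 35.96 for miR-758, with a median of 34.80, against a median of 32.68 over the 388 miRNAs tested. Even miR-154 stood 48.5% of the way down the order of all miRNAs by mean Cq. The next lowest mean Cq values were those of miR-434-3p (32.60), the rat-named miR-136* (33.02), the rat-named miR-136 (33.17), miR-434-5p (33.17) and miR-376a (33.38). So 4 of the 6 assays with the strongest signal belonged to the neighbouring hairpins Mir434 and Mir136. With values this close to the limit, 17 of the 32 assays were measured in every mouse, against 276 of the 388 miRNAs tested.

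The number of cluster assays at Cq 37 or below was 30.33 ± 1.03 (SD, n = 6) in control mice and 27.88 ± 2.47 (SD, n = 8) in mice with OS. Mice 10 and 15 with OS had the fewest, 25 each, whereas no control mouse had fewer than 29. No assay of the cluster passed Fisher's exact test, two-sided, after adjustment over all 389 named miRNAs, and none passed before it. Over the 389, 0.0% passed after adjustment and 0.257% at an unadjusted p under 0.05. The lowest p in the cluster was that of miR-377, measured in 5 of 6 control mice and 3 of 8 mice with OS (p = 0.138, Fisher's exact test). The others measured in the fewest mice were miR-299 (4 of 6 and 4 of 8), miR-758 (2 of 6 and 6 of 8), miR-337-3p (5 of 6 and 4 of 8), miR-541 (5 of 6 and 5 of 8), and miR-496 (6 of 6 and 5 of 8) tied with the rat-named miR-409-3p (5 of 6 and 6 of 8). Of these, miR-758 was the one measured in a larger share of the mice with OS.

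**Figure D1:**
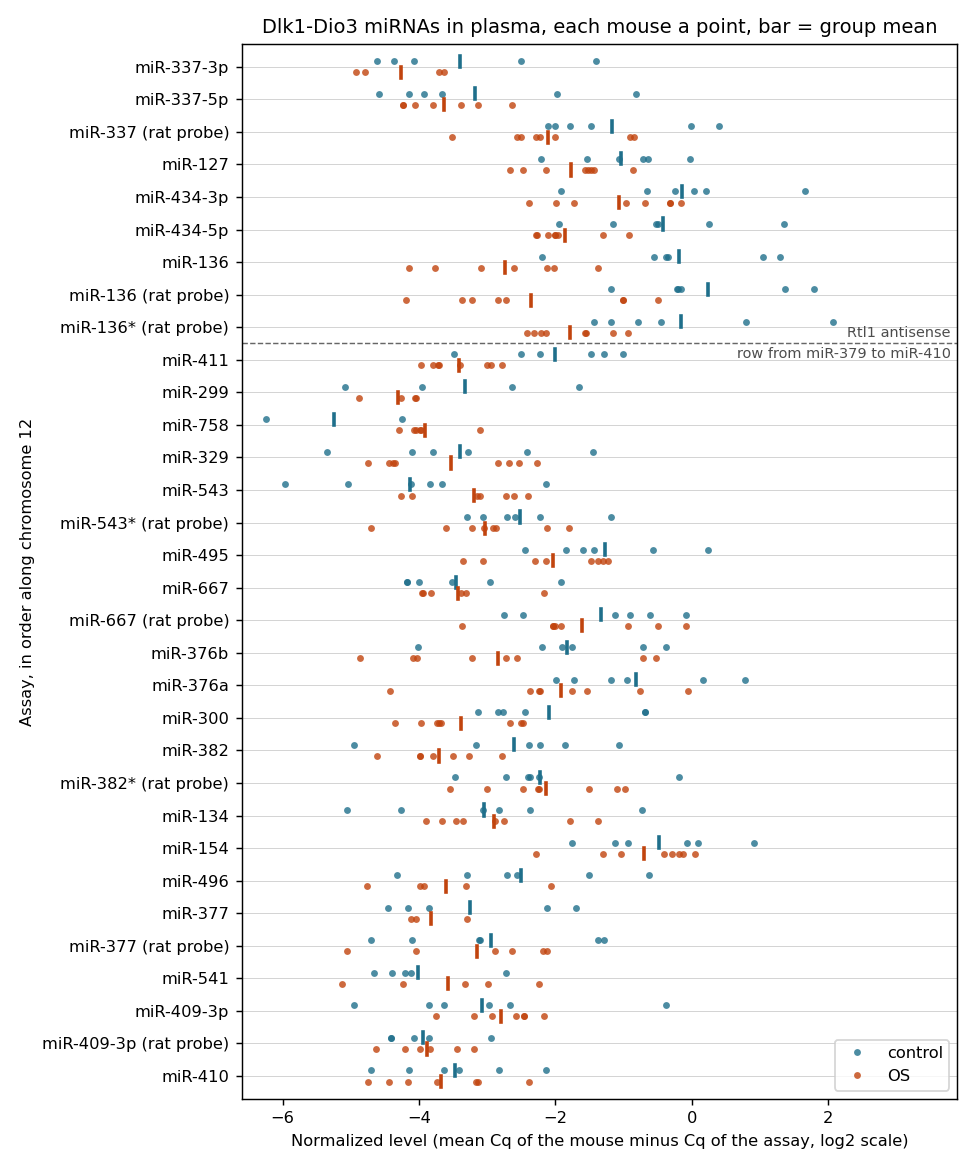
Normalized level (log2 scale, horizontal axis) of each of the 32 cluster assays (vertical axis, in order along chromosome 12) in each mouse, with control mice in blue, mice with OS in red and a bar at each group mean. At least 4 mice with OS lie to the left of every control mouse for the 3 assays of the miR-136 hairpin, miR-434-5p and miR-411. The same holds for the rat-named miR-337, miR-376a and miR-300, which did not pass the adjusted threshold. For miR-758, 5 of 6 lie to the right of both control mice in which it was measured. How many of all miRNAs tested separate in these ways was not counted.

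In mice with OS, 5 assays from 3 hairpins were lower (limma, Benjamini-Hochberg adjusted p under 0.05), and none was higher. They were both assays named miR-136, the rat-named miR-136*, miR-434-5p and miR-411. Against these 5 of 32, 6.44% of all 388 miRNAs tested were lower and 6.19% were higher. Among the 159 miRNAs outside the cluster whose mean Cq lay in the range of the members, 3.77% were lower. Since 3 of the assays read the miR-136 hairpin, they are not separate observations, and without this hairpin 2 of 29 assays were lower. In plasma, fewer cells that release a miRNA and less of it released per cell cannot be told apart.

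The largest difference was that of miR-136, a product of the Rtl1 antisense transcript. With the mouse assay its Cq ran from 30.20 to 34.31 in control mice (median 31.80) and from 33.54 to 36.60 in 7 mice with OS (median 34.74), while mouse 10 with OS was over the limit. Normalized levels were −2.20 to 1.29 in control mice (median −0.36) and −4.15 to −1.37 in mice with OS (median −2.61). All control mice but mouse 4 lay above every mouse with OS, and 4 of the 7 measured mice with OS lay below every control mouse. The difference was −2.54 (SE 0.57, 95% confidence interval −3.74 to −1.35), or 5.83-fold lower in OS, with an adjusted p of 0.0114 by limma and an exact permutation p of 0.00408.

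The rat-named assay of miR-136 was measured in every mouse. Its Cq was 29.88 to 33.29 in control mice (median 31.39) and 32.66 to 35.91 in mice with OS (median 34.82). Levels were −1.18 to 1.79 in control mice (median −0.17) and −4.19 to −0.49 in mice with OS (median −2.78). The groups overlapped through control mouse 4 and mice 15, 17 and 19 with OS, and the other 5 mice with OS lay below every control mouse. The difference was −2.59 (SE 0.61, 95% confidence interval −3.86 to −1.32), 6.03-fold lower, with an adjusted p of 0.0131 by limma and an exact permutation p of 0.00366. Within a mouse, the level by the mouse assay minus that by the rat-named one was −0.54 ± 0.57 (SD, n = 13).

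Mice 10, 11 and 12, the 3 lowest mice with OS by the rat-named assay, were also those with a haemolysis marker under 3. The marker is the Cq of miR-23a minus that of miR-451, an abundant miRNA of red blood cells, and is higher where more red cells broke in the sample. It was 5.77 ± 1.43 (SD, n = 6) in control mice and 4.19 ± 1.94 (SD, n = 8) in mice with OS, and 2 control mice, 3 and 13, were over 7. Without mice 10, 11 and 12, a choice made after seeing the data, the difference of miR-136 was −2.04 by the mouse assay (adjusted p = 0.0763 by limma) and −1.84 by the rat-named one (adjusted p = 0.117), and no assay of the cluster passed. In that comparison of 6 with 5 mice, 8 of the 388 miRNAs passed. With the marker as a covariate the differences of miR-136 were −2.07 (adjusted p = 0.0446) and −2.07 (adjusted p = 0.0758). The part of haemolysis in the difference was not tested beyond these values. With Cq 35 in place of 37 as the limit, neither assay of miR-136 passed, at −1.98 (adjusted p = 0.0513 by limma) and −1.61 (adjusted p = 0.106).

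The other arm of the hairpin, read by the rat-named miR-136*, had a Cq of 30.45 to 33.55 in control mice (median 31.86) and 32.76 to 34.87 in mice with OS (median 33.92). Levels were −1.44 to 2.07 in control mice (median −0.61) and −2.42 to −0.94 in mice with OS (median −1.85). Of the 8 mice with OS, 6 lay below every control mouse, and control mice 4 and 13 lay below the other mice with OS, 17 and 18. The difference was −1.63 (SE 0.49, 95% confidence interval −2.66 to −0.59), 3.09-fold lower, with an adjusted p of 0.0396 by limma and an exact permutation p of 0.00333. The call was kept in 5 of the 14 comparisons that left out 1 mouse, and was lost without any one of control mice 1, 2, 3 and 14 and mice 10, 11, 12, 16 and 19 with OS.

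The neighbouring hairpin Mir434, also within the Rtl1 antisense transcript, was lower by 1 of its arms. Cq of miR-434-5p was 31.00 to 32.93 in control mice (median 32.28) and 33.07 to 34.56 in mice with OS (median 34.04). These Cq values are before scaling, where the mean Cq over all miRNAs kept was also higher in mice with OS (32.12 against 31.68). Normalized levels of miR-434-5p were −1.94 to 1.35 (median −0.50) in control mice and −2.28 to −0.92 (median −2.0) in mice with OS. On that scale the groups overlapped through control mice 3 and 13. The difference was −1.44 (SE 0.44, 95% confidence interval −2.36 to −0.52), 2.72-fold lower, with an adjusted p of 0.0397 by limma and an exact permutation p of 0.00533. It was called in 4 of the 14 comparisons that left out 1 mouse, and it was lost without any of control mice 1, 2, 3, 4 and 14 and mice 10, 11, 12, 16 and 18 with OS.

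The other arm, miR-434-3p, had levels of −1.91 to 1.67 in control mice (median −0.10) and −2.38 to −0.15 in mice with OS (median −0.83). Its difference of −0.92 (SE 0.50) did not pass (adjusted p = 0.220 by limma). The arms were also compared within each mouse. The level of miR-434-3p minus that of miR-434-5p was 0.27 ± 0.23 (SD, n = 6) in control mice and 0.79 ± 0.94 (SD, n = 8) in mice with OS, which did not pass (exact permutation p = 0.211).

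The single call outside the Rtl1 antisense group was miR-411, which lies 169.2 kb from the start of Meg3, near the upstream end of the second row. Its Cq was 32.73 to 34.62 in control mice (median 33.80) and 34.59 to 36.46 in mice with OS (median 35.52). Levels were −3.49 to −1.01 in control mice (median −1.85) and −3.97 to −2.79 in mice with OS (median −3.56). Of the 6 control mice, 5 lay above every mouse with OS, and control mouse 13 lay among the mice with OS. The difference was −1.42 (SE 0.39, 95% confidence interval −2.24 to −0.59), 2.67-fold lower, with an adjusted p of 0.0288 by limma and an exact permutation p of 0.00300. It was called in 11 of the 14 comparisons that left out 1 mouse, and was lost without control mouse 3, without control mouse 14 and without mouse 12 with OS.

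**Figure D2:**
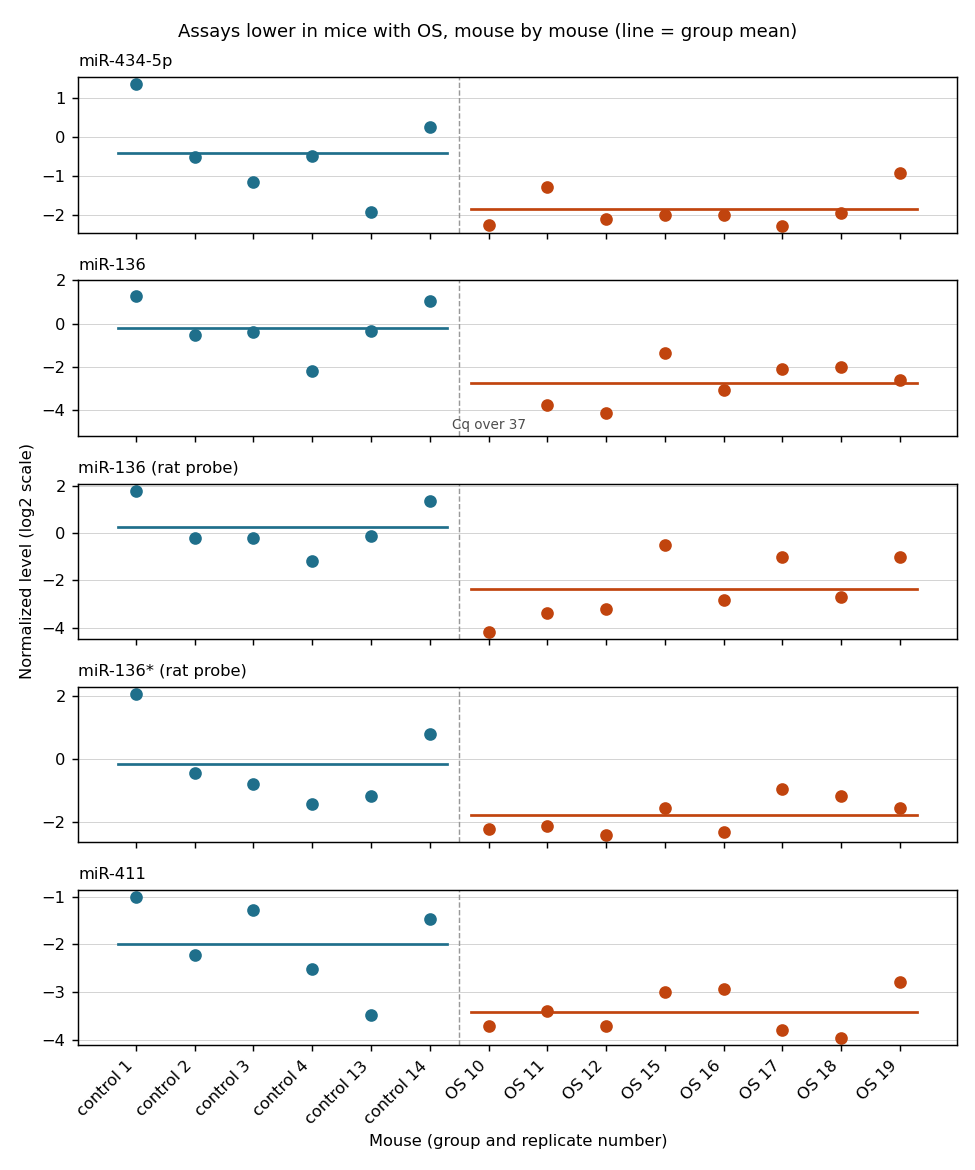
Normalized level (log2 scale, vertical axis) of the 5 assays that were lower in OS, in each mouse (horizontal axis), with control mice in blue, mice with OS in red and a line at each group mean. Control mouse 1 is the highest point for each assay, and mouse 10 with OS has no point for the mouse assay of miR-136 because its Cq was over 37.

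At an unadjusted p under 0.05, 1 further assay was lower and 1 was higher, so that 6 of 32 were lower and 1 was higher. Of all 388 miRNAs tested, 14.7% were lower and 16.0% were higher at this threshold. The lower one was miR-300, 183.3 kb from the start of Meg3, with levels of −3.14 to −0.68 in control mice (median −2.61) and −4.35 to −2.47 in mice with OS (median −3.69). Of the 8 mice with OS, 5 lay below every control mouse, and the difference was −1.29 (SE 0.47, adjusted p = 0.0787 by limma, exact permutation p = 0.0173).

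The higher one, miR-758, was measured in 2 control mice, at levels of −6.25 and −4.25, and in 6 mice with OS, at −4.29 to −3.10 (median −4.01). Of these 6, 5 lay above both control mice. The difference of 1.34 (SE 0.61, adjusted p = 0.157 by limma) therefore rests on 2 control values, and the exact test did not pass (p = 0.0714, exact permutation test over 28 splits). In the other 4 control mice the deposited Cq was over 37, the highest 38.43. With missing values set to Cq 38, a setting that gives these mice a value, the difference of miR-758 was 1.40 and passed the adjusted threshold. It was 0.28 without scaling between mice (adjusted p = 0.822 by limma), 1.04 with the marker of haemolysis in the model (adjusted p = 0.556 by limma) and 0.34 to 2.34 when 1 mouse was left out.

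The remaining 25 assays did not pass at either threshold. Their differences ran from −1.11 for miR-496 to 0.93 for miR-543. Within the Rtl1 antisense group the hairpin of miR-337 was read by 3 assays, with differences of −0.87 for miR-337-3p (SE 0.67), −0.46 for miR-337-5p (SE 0.55) and −0.94 for the rat-named miR-337 (SE 0.49). All 3 intervals included 0. The same held for miR-127 of that group.

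Along the row from miR-379 to miR-410, differences below −0.9 that did not pass were those of miR-496 (−1.11, SE 0.63), miR-376a (−1.10, SE 0.59), miR-382 (−1.09, SE 0.52) and miR-299 (−0.98, SE 0.68), beside miR-376b. With a Cq limit of 35 the estimate of miR-496 was 0.19. MiR-382 passed the adjusted threshold without control mouse 13, where its difference was −1.57, and in 1 of the 13 other alternatives that tested it. Nearer to 0 were both assays of miR-377 (−0.57, SE 0.68, and −0.21, SE 0.65), the rat-named miR-667 (−0.29, SE 0.53) and miR-154 (−0.22, SE 0.46). Besides miR-543, miR-758 and miR-134, the estimates above 0 were those of miR-541 (0.43, SE 0.56), miR-409-3p (0.28, SE 0.56), the rat-named miR-382* (0.09, SE 0.50), the rat-named miR-409-3p (0.06, SE 0.40) and miR-667 (0.02, SE 0.46), and without scaling between mice all 5 of these lay below 0. The interval of miR-154 ran from −1.18 to 0.74, and a change within it is not shown to be absent.

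Estimates were below 0 for 24 of the 32 assays, against 50.3% of all 388 miRNAs tested. Under other ways of scaling the mice they were below 0 for 23 to 26 of the 32. The median over all miRNAs was then −0.06 to 0.14. Without scaling they were below 0 for 30 of the 32, but the median over all miRNAs was itself −0.45. The median difference of the cluster was −0.65, beside a median of −0.00 over all miRNAs and of 0.13 over those outside the cluster in the same range of mean Cq. Without control mouse 1, the median of the cluster was −0.33 and 19 of 32 estimates were below 0. In the Rtl1 antisense group all 9 estimates were below 0, with a median of −0.94, and 4 of the 9 were called lower. These 4 were the assays of the miR-136 hairpin, which are not separate observations, and miR-434-5p. In the row from miR-379 to miR-410, 15 of 23 were below 0, with a median of −0.22, and 1 was called lower. Over all 388 miRNAs tested, 6.44% were called lower. The difference between these groups was not tested, and the 9 assays stand for 4 hairpins.

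**Figure D3:**
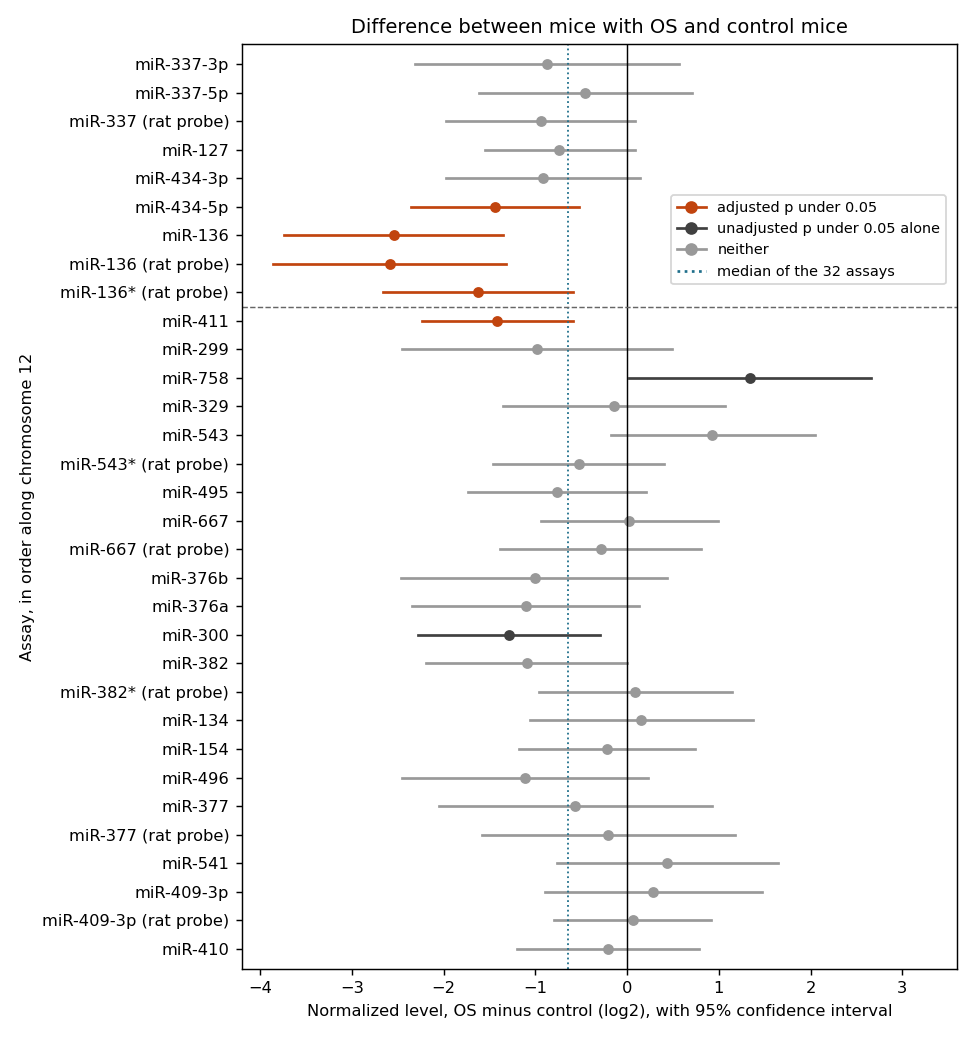
Normalized level in mice with OS minus that in control mice (log2, horizontal axis) for each assay (vertical axis, in order along chromosome 12), with 95% confidence intervals from limma, a dotted line at the median of the cluster (−0.65) and a dashed line between the Rtl1 antisense group above and the row from miR-379 to miR-410 below. The 5 intervals in red passed the adjusted threshold. The 4 of them above the dashed line are those of the miR-136 hairpin and miR-434-5p.

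The spread among control mice was wide. The median SD of an assay of the cluster was 1.15 in control mice and 0.81 in mice with OS, whereas over all miRNAs it was 0.72 and 0.84. On the normalized scale, the highest values came from the same mice. Of the 17 assays measured in every mouse, 13 had their highest level in control mouse 1 and 3 in control mouse 14, and the last 1 in mouse 18 with OS. Among the 259 other miRNAs measured in every mouse, control mouse 1 was the highest for 3.09% and control mouse 14 for 1.54%. Counting the highest 2 mice of each assay, control mouse 1 was among them for 15 of 17 cluster assays and control mouse 14 for 11, against 7.34% and 6.95% of the other miRNAs. The order of these 2 mice depends on the scaling. In Cq before scaling, control mouse 14 had a lower Cq than control mouse 1 for most of the 17 assays. For the rat-named miR-136 the Cq was 29.88 in control mouse 14 and 31.05 in control mouse 1.

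The median level of these 17 assays was −0.09 in control mouse 1 and −0.37 in control mouse 14. In the other 4 control mice it was −1.75, −1.78, −1.90 and −2.45. In mice with OS it ran from −3.06 in mouse 10 to −1.38 in mouse 18, with a median of −2.33. So 4 of the 6 control mice lay within the range of the mice with OS on this summary, and mice 1 and 14 lay above it. Mouse 10 had the lowest level of 5 of the 17 assays.

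Control mouse 1 had the highest mean Cq of the control mice, 32.84, and the fewest named miRNAs at Cq 37 or below. Control mouse 14, with a mean Cq of 31.25 and all 32 cluster assays measured, was not like it in either respect. Their haemolysis markers were 4.38 and 6.88, inside the range of the other control mice. Why the cluster was high in control mice 1 and 14 was not tested. Without control mouse 1, miR-136 differed by −2.24 and −2.28 with its 2 assays and miR-411 by −1.22, which remained called. Without control mouse 14, the mouse and rat-named assays of miR-136, at −2.30 and −2.37, were the only ones of the cluster that were called.

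**Figure D4:**
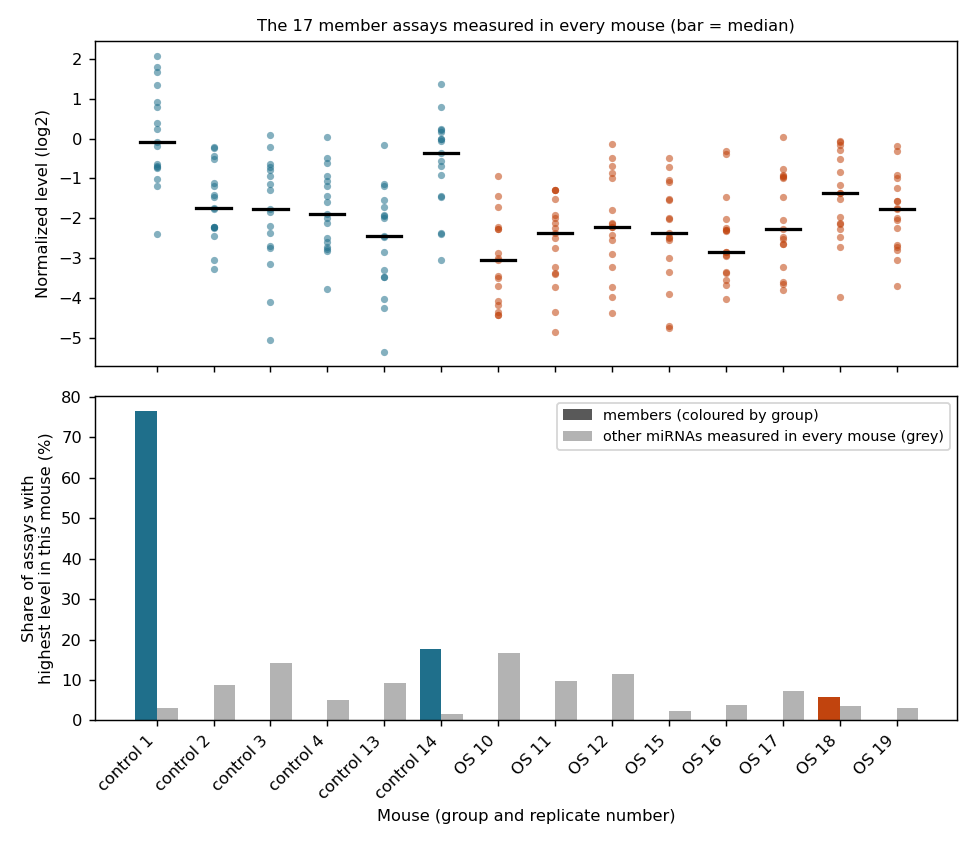
Above, the normalized level (log2 scale) of the 17 cluster assays measured in every mouse, with a bar at the median of each mouse; below, the share (%) of these assays, and in grey of the 259 other miRNAs measured in every mouse, that had their highest level in that mouse. Control mouse 1 holds the highest value of 13 of the 17 assays and control mouse 14 of 3, with 3.09% and 1.54% of the other miRNAs.

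There were 8 hairpins with 2 or more assays, which gave 12 pairs, 10 of them with at least 4 mice in each group. The difference between 2 assays of 1 hairpin within a mouse does not depend on the scaling between mice. None of the 10 pairs differed between the groups after adjustment over the 10 pairs by an exact permutation test. Before it, 2 did. The level of miR-136 minus that of the rat-named miR-136* was −0.03 ± 0.65 (SD, n = 6) in control mice and −1.0 ± 0.64 (SD, n = 7) in mice with OS (exact permutation p = 0.0198, adjusted p = 0.165). That of miR-543 minus the rat-named miR-543* was −1.62 ± 0.78 (SD, n = 6) and −0.40 ± 0.99 (SD, n = 7) (exact permutation p = 0.0355, adjusted p = 0.165).

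The miR-543 hairpin was one where the arms lay on opposite sides of 0, with a difference of 0.93 (SE 0.53) for miR-543 and −0.53 (SE 0.44) for the rat-named miR-543*, neither past the threshold. For the hairpin of miR-382 the values were −1.09 and 0.09, and its pair differed by −1.03 between the groups (exact permutation p = 0.0659, adjusted p = 0.165). Between mouse and rat-named probes of 1 name, the group difference itself differed by −0.21 for miR-136 (exact permutation p = 0.534), 0.05 for miR-409-3p (exact permutation p = 0.952) and 0.36 for miR-667 (exact permutation p = 0.571). Their levels were not the same: miR-409-3p read higher with the mouse assay, by 1.05 ± 0.94 (SD, n = 10), and miR-667 read lower with it, by 1.95 ± 0.99 below the rat-named one (SD, n = 12).

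Other miRNAs of the locus, outside the rule, gave 1 assay of 9 on the list. It was miR-1247, which lies beyond the cluster near Dio3, and its level was −1.52 in control mice and −0.65 in mice with OS, a difference of 0.87 (SE 0.42, adjusted p = 0.166 by limma). Among marker lists of cells that could feed plasma, 1 of 3 red cell miRNAs was lower by limma, miR-144, with a difference of −2.38 (adjusted p = 0.0131). The others, miR-451 at −1.43 and miR-486 at 0.05, were not called. Of 5 white cell miRNAs 1 was lower by limma, miR-142-3p, with a difference of −3.57 (adjusted p = 0.00326). Not called were miR-142-5p of the same hairpin (−1.18), miR-223 (−0.49), miR-155 (−0.16) and miR-150 (0.02). None of the 5 muscle miRNAs, 3 liver miRNAs and 3 brain miRNAs matched by exact name was called in either direction. For brain, where the cluster is used most, the differences of those matched were 0.91 for miR-124, −0.37 for miR-128 and 1.11 for miR-9. The brain list also held miR-129-3p, which no assay matched by exact name. An assay named miR-129-2-3p was called higher, with a difference of 2.00 (adjusted p = 0.0261 by limma). It was measured in 3 control mice and 6 mice with OS. The part of any of these cells in the levels of the cluster was not tested.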

How the data were processed

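Plasma RNA was profiled on Exiqon mouse panels I and II. The authors deposited Cq values, on a log2 scale, before normalization; the sources used here do not say whether calibration between plates and removal of outliers came first. A second deposited table holds the fold changes and p-values of their own comparison, and only its well names were used. Members and lists were chosen with earlier results of these data known.

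Values over Cq 37 counted as missing, the 388 of 389 miRNAs that were missing in fewer than 75% of mice were kept, and the mean Cq of a mouse over these served to scale it. For that mean alone, a missing value took the mean of its group, or Cq 38. Groups of 6 and 8 mice were compared with limma 3.58.1 in R 4.3.3 (two-sided, Benjamini-Hochberg over the 388 miRNAs), and single values by exact permutation over all splits of the mice in Python 3.11.15. Fisher's exact test over 389 miRNAs served for detection, and exact permutation of the Cq difference for pairs of assays of 1 hairpin. Except in the alternative that set missing values to Cq 38, each limma p was taken without filling in missing values. The fit was tested on simulated data. Named are the assays past either threshold, the 6 with the lowest mean Cq, the 6 measured in the fewest mice and those sharing a hairpin. Mature and hairpin sequences are from RefSeq (GRCm38.p6). A Cq gives no count of molecules, so precision rests on the spread between mice. Plots were drawn with matplotlib 3.10.9.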

Additional observations from a re-analysis of the deposited data

Results flagged for a closer look

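Over 50 groups of 4 to 8 mice with a value for 1 of the assays named above, Dixon's test at the 95% level set apart 1 mouse in 3 of them, and chance alone sets one apart in about 1 in 20 groups. Control mouse 4 had a normalized level of −2.72 for miR-541, against −4.66 to −4.12 in the other control mice measured. Mouse 12 with OS had −2.17 for miR-667, against −3.95 to −3.31 in the others, and −3.10 for miR-758, against −4.29 to −3.97.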

How the results depend on the processing

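The 5 assays called lower kept their direction under each alternative that tested them; the mouse assay of miR-136 was not among the miRNAs measured in every mouse. Their number was 2 with scaling to miR-423-3p, miR-103 and miR-191, 2 with scaling to the median, 3 with each panel on its own mean, 2 with a Cq limit of 35 (miR-434-5p and the rat-named miR-136*, and neither assay of miR-136), 1 with the haemolysis marker as a covariate, 3 by the methods' t-test, 0 without the 3 mice with OS under a marker of 3 (added after seeing the data) and 2 to 6 when 1 mouse was left out. It was 2 without control mouse 3, control mouse 14 or mouse 12 with OS, and 3 without control mouse 1 or 2 or mouse 10, 11 or 16 with OS. Over all 388 miRNAs the number lower went from 25 to 6 with the covariate, 14 by the methods' t-test, 4 without the mice under a marker of 3, 7 without control mouse 3 and 9 without control mouse 14. Both assays of miR-136 were called each time 1 mouse was left out, with adjusted p of 0.00363 to 0.0304 and 0.00633 to 0.0388. The number higher was 1 with missing values at Cq 38. Pairs of assays passing were 0 to 1 when 1 mouse was left out, and 1 without mouse 12 or 15 with OS.

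Without scaling, the median of all miRNAs was −0.45 and that of the cluster −1.15, and of all miRNAs 17 were lower and 4 higher, against 25 and 24 (11 and 22 with the 3 scaling miRNAs, 14 and 28 with the median). Some estimates changed sign. MiR-409-3p was −0.15 without scaling, −0.10 with missing values at Cq 38, −0.29 with a limit of 35, −0.28 with the covariate and −0.39 without the mice over a marker of 7. MiR-667 was −0.35, −0.54, −0.26 and −0.30 under the first, second, covariate and last of these, −0.24 with a limit of 39, −0.03 with the mean taken outside the cluster and −0.18 without the mice under a marker of 3. MiR-541 was −0.23 without scaling and −0.24 at Cq 38, and miR-496 was 0.19 with a limit of 35. MiR-154 was 0.03 with each panel on its own mean, 0.02 with the covariate and 0.12 without the mice under 3. The rat-named miR-382* was −0.34 without scaling, −0.36 by panel and −0.26 without the mice over 7. The rat-named miR-409-3p was −0.20 with the 3 scaling miRNAs, −0.08 without scaling, −0.46 by panel, −0.03 outside the cluster and −0.06 without the mice under 3. When 1 mouse was left out, ranges across 0 were −0.47 to 0.06 for miR-154, −0.73 to 0.02 for miR-337-5p, −0.09 to 0.82 for miR-409-3p, −0.23 to 0.33 for miR-667, −0.55 to 0.17 for the rat-named miR-377, −0.17 to 0.50 for the rat-named miR-382* and −0.09 to 0.31 for the rat-named miR-409-3p. The causes were not tested. The methods call the control mice littermates, but the labels give no litter, so no paired analysis was possible.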
